A study of Mus musculus with 14 samples.

Results

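Long promoter pairs are loops between 10 kb bins whose starts lie 500 to 1000 kb apart and that both carry an H3K4me3 peak. They were taken from the 4 lists of loops that the caller MAPS had made from H3K4me3 PLAC-seq, as all entries flagged as a peak bin at both ends and with that distance between the starts of the anchors, the 2 bins of a loop. Together the lists held 5334 distinct long promoter pairs among 137221 distinct loops. ESC control held 1507 of 56714 loops, ESC auxin 1203 of 27610, NPC control 2766 of 82861 and NPC auxin 2760 of 41667. All 4 groups were F123 mouse cells, an established embryonic stem cell (ESC) line, carrying CTCF fused to an auxin-inducible degron (CTCF-AID), so the controls carried the fusion too. ESCs were sampled at 0 h (control) or after 48 h of auxin (1 µl of a 500 mM stock per ml of medium), and neural precursor cells (NPCs) on day 4 of differentiation without (control) or with auxin. The labels name 2 samples per group but each group has 1 list per caller, and the sources used here do not say how the samples were combined, so no comparison between conditions has a replicate check. The other 3 groups of the series, with dCas9 directed to Vcan, were not analysed here.

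PLAC-seq ligates DNA ends that lie close together in the nucleus and then enriches ligated fragments with an antibody, here against H3K4me3, a histone mark of active and poised promoters. CTCF is a DNA-binding protein that stops loop-extruding cohesin and so sets the ends of many chromatin loops, and the degron lets auxin remove it. In ESCs the promoters of many silent developmental regulators carry H3K4me3 together with the Polycomb mark H3K27me3, and such promoters are known to contact each other over long distances.

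Promoters of 10 anchors are shown, from named pairs with a promoter sequence available for a gene at both anchors. Some pairs that ranked higher were passed over for lack of one. Pax9 with Foxa1 had the highest count of any long pair in ESC auxin (chosen after its values were seen). Crlf2 with Gtpbp6 and Sptbn1 with Psme4 were called in all 4 lists. Cwf19l2 with Msantd4 was called in both controls and neither auxin list, and Zfp354b with Phykpl in both auxin lists and neither control list. Each run holds the 250 bases before the gene start from RefSeq (GRCm38.p6), read 5′ to 3′ on the gene's strand. Capitals mark GC boxes, the letters GGGCGG or their reverse complement CCGCCC.
Pax9: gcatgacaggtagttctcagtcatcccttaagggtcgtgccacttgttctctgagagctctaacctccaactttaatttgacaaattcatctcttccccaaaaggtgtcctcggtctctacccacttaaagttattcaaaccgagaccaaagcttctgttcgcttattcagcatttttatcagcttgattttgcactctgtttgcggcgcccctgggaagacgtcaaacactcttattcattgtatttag
Foxa1: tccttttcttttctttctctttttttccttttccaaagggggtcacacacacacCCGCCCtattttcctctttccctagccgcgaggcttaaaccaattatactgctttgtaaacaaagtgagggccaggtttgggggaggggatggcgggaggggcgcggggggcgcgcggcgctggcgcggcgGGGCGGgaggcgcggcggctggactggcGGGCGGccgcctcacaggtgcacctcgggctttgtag
Crlf2: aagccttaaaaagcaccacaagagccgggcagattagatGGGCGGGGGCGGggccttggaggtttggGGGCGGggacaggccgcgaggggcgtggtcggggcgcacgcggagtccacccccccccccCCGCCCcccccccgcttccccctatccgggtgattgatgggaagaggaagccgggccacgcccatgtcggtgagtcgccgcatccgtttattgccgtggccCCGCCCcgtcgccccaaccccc
Gtpbp6: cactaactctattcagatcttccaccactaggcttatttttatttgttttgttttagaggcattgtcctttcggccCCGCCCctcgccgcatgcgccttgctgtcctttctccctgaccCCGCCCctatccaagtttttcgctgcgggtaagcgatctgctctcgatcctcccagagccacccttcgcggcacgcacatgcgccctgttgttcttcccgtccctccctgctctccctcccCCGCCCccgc
Sptbn1: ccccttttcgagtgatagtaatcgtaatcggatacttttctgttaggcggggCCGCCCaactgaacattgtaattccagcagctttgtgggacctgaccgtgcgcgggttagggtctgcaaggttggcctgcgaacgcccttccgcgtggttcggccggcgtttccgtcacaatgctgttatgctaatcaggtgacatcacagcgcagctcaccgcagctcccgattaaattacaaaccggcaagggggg
Psme4: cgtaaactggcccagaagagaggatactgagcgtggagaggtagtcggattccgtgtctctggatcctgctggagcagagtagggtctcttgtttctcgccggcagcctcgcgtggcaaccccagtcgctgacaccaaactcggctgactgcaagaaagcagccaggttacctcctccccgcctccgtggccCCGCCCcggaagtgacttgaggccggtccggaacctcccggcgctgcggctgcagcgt
Cwf19l2: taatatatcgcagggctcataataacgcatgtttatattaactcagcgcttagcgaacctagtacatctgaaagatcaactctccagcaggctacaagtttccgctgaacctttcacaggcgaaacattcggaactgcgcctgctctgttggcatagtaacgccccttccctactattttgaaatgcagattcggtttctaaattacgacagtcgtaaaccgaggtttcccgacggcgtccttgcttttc
Msantd4: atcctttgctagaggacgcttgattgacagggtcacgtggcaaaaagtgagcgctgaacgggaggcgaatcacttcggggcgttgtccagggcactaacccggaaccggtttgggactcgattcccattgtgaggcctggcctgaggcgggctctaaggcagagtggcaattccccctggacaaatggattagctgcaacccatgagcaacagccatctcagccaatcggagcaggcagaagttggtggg
Zfp354b: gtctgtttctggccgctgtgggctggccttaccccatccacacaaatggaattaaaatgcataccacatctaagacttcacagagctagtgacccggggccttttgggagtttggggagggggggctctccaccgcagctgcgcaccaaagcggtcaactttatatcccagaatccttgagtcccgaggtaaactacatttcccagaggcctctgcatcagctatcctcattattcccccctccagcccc
Phykpl: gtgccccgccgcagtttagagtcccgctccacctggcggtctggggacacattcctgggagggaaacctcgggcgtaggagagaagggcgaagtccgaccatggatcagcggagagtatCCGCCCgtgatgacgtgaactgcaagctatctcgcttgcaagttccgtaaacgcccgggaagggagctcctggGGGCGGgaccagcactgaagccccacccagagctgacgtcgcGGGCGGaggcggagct
The windows lie at chr12:56695221-56695470 (Pax9, plus strand), chr12:57546112-57546361 (Foxa1, minus strand), chr5:109558994-109559243 (Crlf2, minus strand), chr5:110108198-110108447 (Gtpbp6, minus strand), chr11:30198258-30198507 (Sptbn1, minus strand), chr11:30771525-30771774 (Psme4, plus strand), chr9:3403835-3404084 (Cwf19l2, plus strand), chr9:4376302-4376551 (Msantd4, plus strand), chr11:50931636-50931885 (Zfp354b, minus strand) and chr11:51584531-51584780 (Phykpl, plus strand).

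The promoters at long pairs were close to other H3K4me3 promoters in the sequence features counted. In the same window, the median number of CG dinucleotides was 16 (ESC control), 15.5 (ESC auxin) and 17 (both NPC lists) at anchors of long pairs, against 16 over the 10319 promoters in marked bins and 9 over all 18834 promoters of the table. A marked bin is a 10 kb bin that any of the 4 lists flags as a peak bin. GC boxes occurred in 57.6%, 61.7%, 60.5% and 61.2% of promoters at long pairs (ESC control, ESC auxin, NPC control, NPC auxin), in 59.6% of those in marked bins and in 41.7% of all. The letters CCANNAGNNGGC, the core of the CTCF motif, on either strand, were in 2.61% (95% interval 1.66 to 3.90), 2.52%, 2.58% and 2.75% of promoters at long pairs, in 2.55% of those in marked bins and in 2.00% of all, and in none of the 10 windows shown. A match is a run of letters and no measured binding, and CTCF sites elsewhere in the 10 kb bin were not searched.

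Total contacts, computed from columns of the FitHiChIP lists, were 47519917 and 48307867 for ESC control and auxin, and 52337421 and 59961568 for NPC control and auxin. The MAPS lists had kept bin pairs with a count of at least 12 and at least 2 times the expected count. Peak flags were alike in control and auxin at all 17775 bins that both ESC lists used and all 26469 that both NPC lists used, and at 93.0% of 31070 bins used in both controls. The flags of bins that only 1 of the lists used were not compared. Of 8 marker genes of the cell types (Pou5f1, Nanog, Zfp42, Esrrb, Sox1, Pax6, Nes, Pou3f2), 7 had a marked bin in the ESC lists and 8 in the NPC lists, Esrrb being the exception, so the flags do not separate the cell types at these genes.

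After auxin the number of long promoter pairs was nearer to that in control than the number of loops as a whole. In ESCs the number was 1507 in control and 1203 with auxin, a ratio of 0.798 (exact 95% interval 0.739 to 0.862, counting error only). In NPCs it was 2766 and 2760, a ratio of 0.998 (0.946 to 1.05). Over all loops the ratios were 0.487 and 0.503. Pairs of marked bins less than 500 kb apart gave 0.653 (0.636 to 0.671) and 0.637 (0.620 to 0.655), and loops of 500 to 1000 kb with a peak in 1 anchor gave 0.458 (0.432 to 0.487) and 0.544 (0.527 to 0.562). These are values over all distances under 500 kb; pairs of marked bins at 400 to 500 kb gave 0.849 (0.781 to 0.922) in ESCs, above the long pairs, and 0.927 (0.863 to 0.995) in NPCs. The long pairs made up 10.1% of all pairs with a peak in both anchors in ESC control and 12.04% with auxin, and 17.4% and 24.9% in the NPC lists.

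The NPC value depended on the caller and its thresholds. In the FitHiChIP lists the numbers, on the autosomes, gave 0.884 in NPCs and 0.867 in ESCs. Among MAPS pairs with a false discovery rate (FDR) under 0.0001 the ratio was 0.7705 in NPCs and 0.660 in ESCs, and among pairs at 3 or more times the expected count 0.806 and 0.740. The NPC auxin list was the deepest, and with the minimum count of 12 raised in proportion to total contacts, to 15.1 there, the NPC ratio was 0.886. With a lower bound of 600 kb it was 1.04 (0.975 to 1.11), and with adjacent pairs counted once 1.01, so the NPC value lay on either side of 1. The ESC ratio was below 1 under each of these settings.

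**Figure D1:**
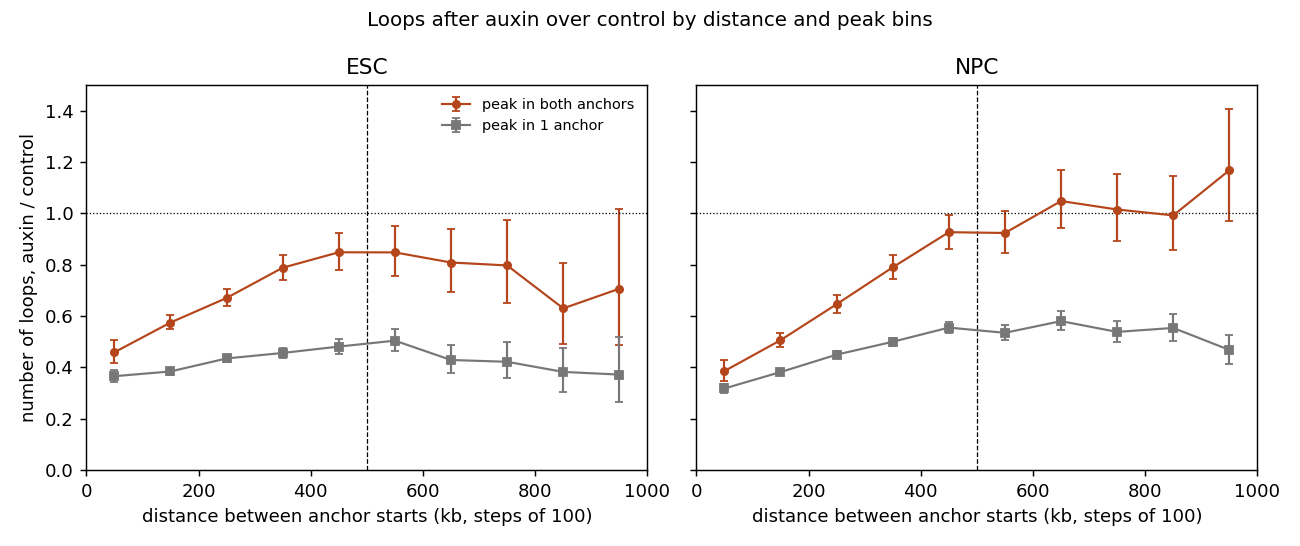
Number of loops with auxin over control, on the y axis, by distance between anchor starts in steps of 100 kb, on the x axis, in ESCs (left) and NPCs (right), for loops with a peak in both anchors (circles) or in 1 anchor (squares); bars are exact 95% intervals for counting error. In NPCs the circles go from 0.386 under 100 kb to between 0.924 and 1.17 beyond 500 kb, right of the dashed line, while the squares stay between 0.318 and 0.581.

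By steps of 100 kb, the ratio for pairs of marked bins was 0.459 in ESCs under 100 kb, 0.849 at 400 to 500 kb and 0.848 at 500 to 600 kb, then 0.809, 0.797, 0.630 and 0.707 in the 4 steps up to 1000 kb. In NPCs it was 0.386 under 100 kb, 0.927 at 400 to 500 kb and 0.924, 1.05, 1.02, 0.992 and 1.17 in the 5 steps of the long range. The last ESC step held only 75 pairs in control and 53 with auxin. The bound of 500 kb marked no step: just outside, at 490 kb, the 4 lists held 99, 64, 124 and 132 pairs with median ratios to expected of 2.89 to 3.31, and just inside, at 500 kb, 81, 73, 143 and 125 pairs with medians of 3.08 to 3.35.

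On 18 of 19 autosomes in ESCs, and on all 19 in NPCs, the ratio of long promoter pairs was above that of all loops of the chromosome. The chromosomes ranged in ESCs from 0.50 (100 and 50 pairs on chromosome 6) to 1.71 (38 and 65 on chromosome 18), with fewer pairs after auxin on 15 chromosomes, more on 2 and as many on 2. In NPCs they ranged from 0.681 (191 and 130 on chromosome 6) to 1.39 (75 and 104 on chromosome 19), with fewer on 11 and more on 8. Chromosome 8 held the most members over the 4 lists, with 129, 108, 269 and 309 pairs in ESC control, ESC auxin, NPC control and NPC auxin.

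Each pair rested on few reads. The median count per pair was 17 in ESC control, 18 in ESC auxin and 20 in both NPC lists, and the highest counts were 104, 148, 206 and 117. The median ratio of count to the expected count of MAPS was 3.58 in ESC control (quartiles 2.98 and 4.45) and 3.31 with auxin (2.89 and 4.06), and for NPCs 3.55 in control (2.86 and 4.67) and 3.11 with auxin (2.67 and 3.83). The medians with auxin were thus lower by 0.27 in ESCs and 0.44 in NPCs, against standard deviations over the 19 autosomes of 0.18 and 0.22. Medians of all loops were also lower with auxin (2.91 to 2.78 in ESCs, 3.03 to 2.81 in NPCs). So were those of shorter pairs of marked bins (2.61 to 2.53, 2.63 to 2.48). Loops of 500 to 1000 kb with a peak in 1 anchor went from 4.33 to 3.84 and from 4.50 to 3.68. A lower median was thus not particular to long promoter pairs. The median expected count of long promoter pairs moved the other way, from 4.79 to 5.37 in ESCs and from 5.42 to 6.48 in NPCs. At long pairs called in both lists of a cell type, the log2 ratio of counts, auxin over control, lay a median of 0.11 (ESC) and 0.07 (NPC) above the median of all shared loops, with quartiles of -0.22 and 0.35, and of -0.24 and 0.37. The median of all shared loops was itself -0.1059 (ESC) and -0.0704 (NPC), so these values do not show a rise in counts. Shared pairs of marked bins at 400 to 500 kb lay 0.1059 and 0.129 above it.

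Most control pairs were not called again in the same bins after auxin. Of 1507 ESC control pairs, 497 were in the ESC auxin list, 33.0% (exact 95% interval 30.6 to 35.4), where 22.9% of all ESC control loops were. Pairs of marked bins under 500 kb gave 32.7% (31.9 to 33.5), close to the share of the long pairs. Of 2766 NPC control pairs, 1333 were in the NPC auxin list, 48.2% (46.3 to 50.1), against 27.0% of all NPC control loops and 37.2% (36.3 to 38.0) of the shorter pairs. At 400 to 500 kb alone, pairs of marked bins gave 33.4% (30.8 to 36.1) in ESCs and 47.4% (44.89 to 49.85) in NPCs, close to the long pairs. Loops of the long range with a peak in 1 anchor gave 16.3% and 25.7%. With anchors allowed to differ by 1 bin the shares were 51.9% and 65.7%.

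**Figure D2:**
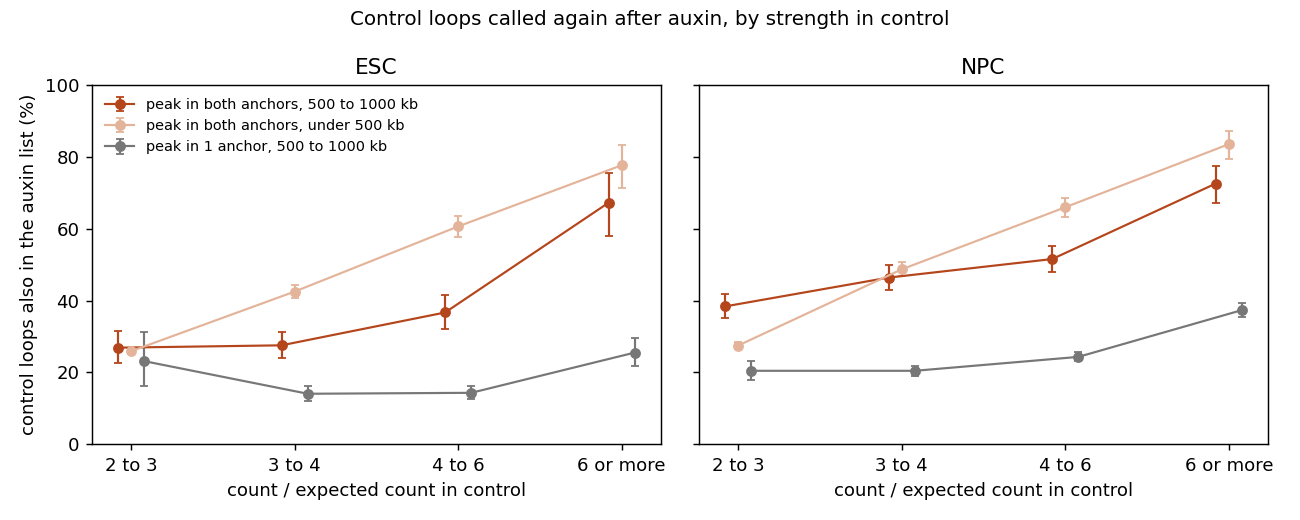
Share of control loops also in the auxin list (y axis, %) by the ratio of count to expected count in control (x axis, 4 classes), for long promoter pairs, shorter pairs of marked bins and loops of 500 to 1000 kb with a peak in 1 anchor; bars are exact 95% intervals. Among long promoter pairs the share goes from 26.9% to 67.2% in ESCs and from 38.4% to 72.6% in NPCs.

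Stronger pairs had a higher share called again. At 6 or more times the expected count, 80 of 119 ESC pairs (67.2%, 58.0 to 75.6) and 222 of 306 NPC pairs (72.6%, 67.2 to 77.5) were in the auxin list, against 26.9% and 38.4% at 2 to 3 times. By count, 16.2% of ESC pairs with 12 to 15 reads and 70.3% of those with 25 or more were called again, and 28.8% and 70.5% of NPC pairs. The order of long and shorter pairs depended on what was held alike. At 4 to 6 times the expected count the long pairs had the lower share (36.7% against 60.6% in ESCs and 51.5% against 66.0% in NPCs), while at 2 to 3 times it was 26.9% against 25.9% in ESCs and 38.4% against 27.5% in NPCs. At like counts the long pairs had the higher share. With 16 to 24 reads it was 31.2% against 22.6% in ESCs and 44.5% against 27.98% in NPCs, and with 25 or more 70.3% against 37.1% and 70.5% against 40.5%.

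Pairs absent from the auxin list were offset, in NPCs nearly in full, by pairs seen there alone. In ESCs 1010 control pairs were not called with auxin and 706 auxin pairs were not called in control, and in NPCs the numbers were 1433 and 1427. The pairs missing after auxin had median counts of 16 and 17 in control, near the minimum of 12, against 21 and 23 for those in both lists. Of the missing pairs, 28.2% in ESCs and 33.9% in NPCs had a loop in the auxin list within 1 bin of both anchors, 8.32% and 10.2% were in the FitHiChIP auxin list, and 65.6% and 59.1% had neither. Of the pairs in the auxin list alone, 61.8% and 63.5% had neither in control.

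**Figure D3:**
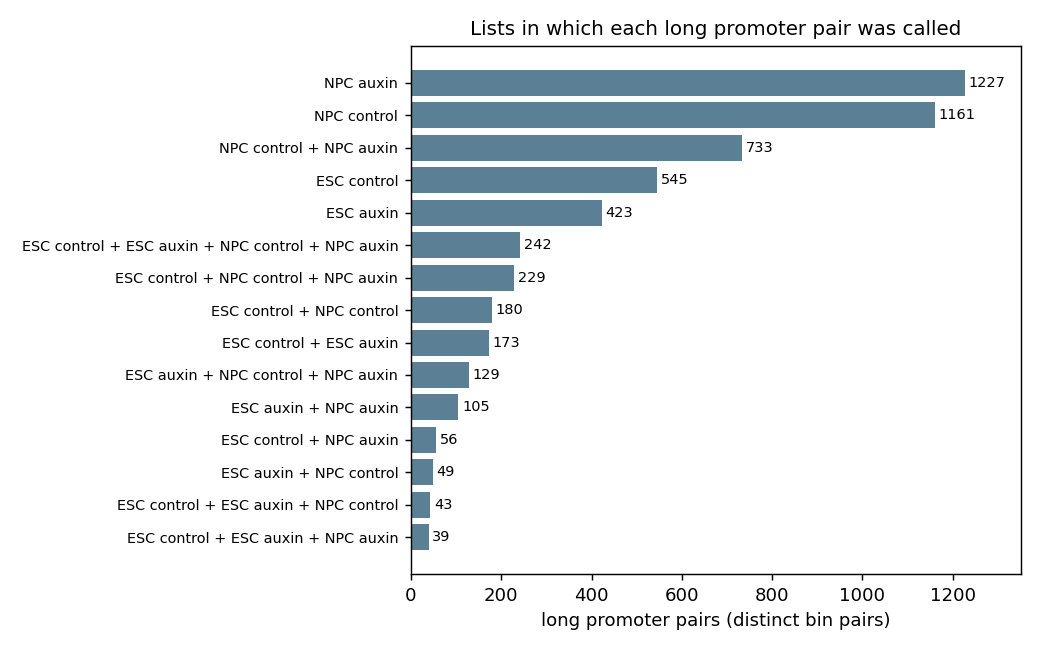
Number of distinct long promoter pairs (x axis) for each combination of the 4 lists in which they were called (y axis). The 3 largest classes are NPC auxin alone (1227), NPC control alone (1161) and both NPC lists (733), and 242 pairs are in all 4.

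Of the 5334 distinct pairs, 3356 (62.9%) were in 1 list and 242 (4.54%) in all 4. Within each list, pairs of all 4 lists had a higher median ratio to expected than pairs of that list alone, 4.24 against 3.39 in ESC control and 3.68 against 3.19 in ESC auxin. The medians for NPCs were 4.81 against 3.26 in control and 3.64 against 2.97 with auxin. Both controls and neither auxin list held 180 pairs, and both auxin lists and neither control 105.

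Differentiation went with more long promoter pairs, while the number of shorter pairs of marked bins, taken over all distances under 500 kb, differed little. NPC control held 1.84 times as many as ESC control (1.72 to 1.96), and NPC auxin 2.29 times as many as ESC auxin (2.14 to 2.46). Pairs of marked bins under 500 kb gave 0.973 and 0.9496, and loops of the long range with a peak in 1 anchor 3.10 and 3.68. At 400 to 500 kb alone, pairs of marked bins gave 1.293 (control) and 1.413 (auxin). Over all loops the ratios were 1.461 and 1.509. A higher number in NPCs was thus not particular to long promoter pairs, though their ratios were above these values in the MAPS lists. All 19 autosomes had more long promoter pairs in NPC control than in ESC control, from 1.22 to 3.10 times. FitHiChIP gave 1.49 and 1.52. The NPC lists had more total contacts, and their anchors held more short-range reads, with medians of 680 and 740 per anchor bin in NPC control and auxin against 322 and 410 in ESC control and auxin. With the minimum count scaled to total contacts, the ratios were 1.62 and 1.91. The part of short-range reads in the result was not tested.

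Of the ESC control pairs, 825 (54.7%, 52.2 to 57.3) were loops of the NPC control list, where 50.3% of all ESC control loops were. In 694 of these both bins were also flagged in NPCs, 60.7% of the 1143 pairs with both bins flagged there. Seen from NPC control, the same 694 were 25.1% of its 2766 pairs and 34.8% of the 1995 with both bins flagged in ESCs. With auxin, 49.5% of ESC pairs were in the NPC list, where 37.8% of all ESC auxin loops were. A bin counts as flagged only where a list uses it, so these denominators are lower limits.

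The pairs used 5132 distinct anchor bins over the 4 lists, of which 520 were anchors in all 4. Between 58.7% and 66.4% of the anchors of a list held 1 long pair, and the most that an anchor held was 12, 9, 15 and 14. Most pairs spanned other marked bins: the median number between the anchors was 7, 7, 5 and 6, and none lay between them in only 4.38%, 3.82%, 5.06% and 4.53% of pairs. Counting pairs in adjacent bins once left 1018, 802, 1848 and 1863 clusters.

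Coding genes were placed in anchor bins by their start, or, for genes without an entry in the promoter table, by a gene end in a marked bin. A gene lay at both anchors in 37.6% of ESC control pairs (35.2 to 40.1) and 39.2% of ESC auxin pairs, and in 46.2% and 48.6% (46.7 to 50.5) of the NPC pairs. The shorter pairs of marked bins gave 31.5%, 35.2%, 36.9% and 38.9%, below the long pairs in each list. With promoter table starts alone the shares of long pairs were 23.3%, 21.9%, 31.9% and 32.3%. Neither anchor held a gene in 17.98%, 15.1%, 10.4% and 9.20%. Where both anchors held starts of 1 strand, the genes pointed the same way in 54.3%, 51.1%, 50.9% and 52.3% of 245, 178, 576 and 595 long pairs, and the starts faced each other in 21.6%, 23.6%, 24.3% and 21.7%.

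Pairs that joined developmental regulators were few and had high counts. From 4 lists of 190 genes (Hox genes; other homeobox regulators; forkhead, GATA and T-box regulators; SOX, ZIC and proneural regulators), a regulator lay at both anchors of 13 of 1507 long pairs in ESC control and 12 with auxin, and of 9 and 10 in the NPC lists. These were 0.863% (0.460 to 1.47), 0.998%, 0.325% and 0.362% of the long pairs, against 0.0818% (0.0408 to 0.146), 0.228% and 0.0382% of the shorter pairs in the first 3 lists and 0 of 8343 in NPC auxin (upper limit of the exact interval 0.0442%). In the FitHiChIP lists the shares were closer, 0.536%, 0.571%, 0.250% and 0.376% of long pairs against 0.220%, 0.446%, 0.0930% and 0.108% of shorter ones. The median count of the long regulator pairs was 60, 64, 60 and 41, against 17 to 20 for the other long pairs. Their median ratio to expected was 7.38, 9.29, 4.03 and 3.27, against 3.57, 3.30, 3.55 and 3.11, so it was close to the others in NPCs. Of the 13 in ESC control, 12 were called again with auxin (92.3%, 64.0 to 99.8), against 33.0% of long pairs with other genes at both anchors and 32.1% of the remaining ones. In NPCs 8 of 9 were called again (88.9%, 51.8 to 99.7), against 50.2% and 46.2%. Several of these pairs share an anchor or lie in adjacent bins, while the intervals treat each pair as independent. Long pairs of 6 or more times the expected count, whatever their genes, were called again in 67.2% and 72.6% of cases. Those with 25 or more reads were called again in 70.3% and 70.5%. The regulator lists were chosen with results of these data known.

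**Figure D4:**
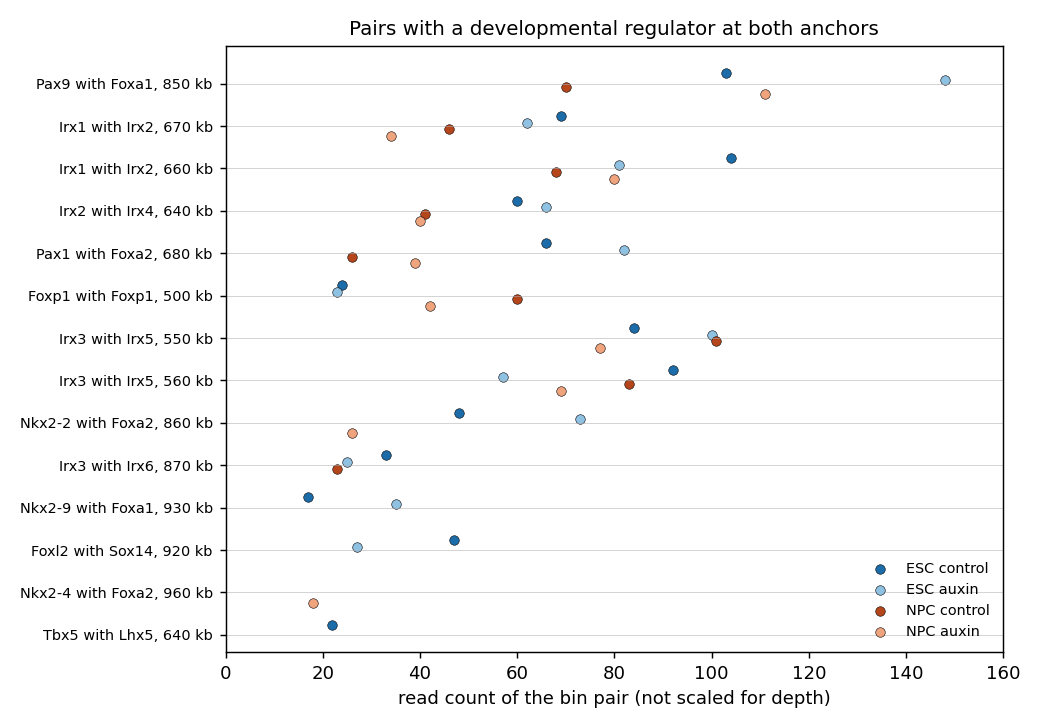
Read count, on the x axis, of each of the 14 long promoter pairs with a developmental regulator at both anchors (y axis, with the distance between anchors) in the 4 lists; a missing point means that the pair was not in that list. Pax9 with Foxa1 is highest in ESC auxin at 148, and the pairs of Foxa2 with Pax1 and Nkx2-2 are higher in the ESC lists than in the NPC lists.

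Over the lists there were 14 such pairs, in 12 clusters, 8 of them in all 4 lists. Pax9, a paired box factor of pharyngeal pouches and teeth, and Foxa1, a forkhead pioneer factor of endoderm, were 850 kb apart (chromosome 12, 56690001 to 56700000 and 57540001 to 57550000). Their pair had 103 reads in ESC control (exact Poisson interval 84.1 to 125) and 148 in ESC auxin (125 to 174). The NPC lists gave 70 in control (54.6 to 88.4) and 111 with auxin (91.3 to 134). Counts were higher with auxin in both cell types, and higher in ESCs than in NPCs under the same treatment. On counts not scaled for total contacts, the intervals of control and auxin do not overlap, in ESCs narrowly (upper limit 124.9 in control, lower limit 125.1 with auxin). In both cell types the gap was smaller in proportion than the difference in total contacts, which were higher with auxin. The pair was chosen after its values were seen, so its intervals do not test a change. The intervals of ESCs and NPCs overlap in control and with auxin. The ratios to expected were 8.34, 11.5, 3.45 and 4.41.

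Pairs of Foxa2, which specifies endoderm, notochord and floor plate, also had more reads with auxin. Its pair with Pax1, a paired box factor of the sclerotome (chromosome 2, 147360001 to 147370000 and 148040001 to 148050000), had 66, 82, 26 and 39 reads, and that with Nkx2-2, a homeobox factor of the ventral neural tube, 48 and 73 in the ESC lists and 26 in NPC auxin, with no call in NPC control. Nkx2-9 with Foxa1 had 17 and 35 reads in the ESC lists and was called by MAPS in neither NPC list, though by FitHiChIP in NPC auxin with 23 contacts, and Nkx2-4 with Foxa2 had 18 in NPC auxin alone. The 3 pairs that were called in both lists of a cell type had more reads with auxin in each such case. Poisson intervals of the Pax1 pair overlap between control and auxin (51.0 to 84.0 and 65.2 to 102 in ESCs), so its difference is within counting error.

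The Iroquois genes, homeobox factors that pattern neural tissue and heart and lie in 2 clusters, gave 6 of the 14 pairs. Irx1 with Irx2 (chromosome 13, 71960001 to 71970000 and 72620001 to 72630000) had 104 and 81 reads in ESC control and auxin and 68 and 80 in the NPC lists, and the adjacent bin of Irx1 with the same Irx2 bin 69, 62, 46 and 34. Irx2 with Irx4 had 60, 66, 41 and 40. In the other cluster, Irx3 with Irx5 (chromosome 8, 91800001 to 91810000 and 92360001 to 92370000) had 92, 57, 83 and 69 reads, and the adjacent pair of bins 84, 100, 101 and 77. In ESCs the intervals of the former narrowly do not overlap between control and auxin (74.16 to 113 and 43.2 to 73.85). The latter had more reads with auxin, but its intervals overlap (67 to 104 and 81.4 to 122). Bins side by side thus differed in direction, for the latter within counting error. All 5 pairs were in all 4 lists. Irx3 with Irx6 had 33, 25 and 23 reads and was not called by MAPS in NPC auxin. FitHiChIP gave it 46, 42, 78 and 75 contacts in the 4 lists, so the callers differed most in NPCs. Irx1, Irx5 and Irx6 were placed by a gene end.

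Of the remaining regulator pairs, Foxl2, a forkhead factor of the ovary, with Sox14 had 47 and 27 reads in ESC control and auxin and was called in neither NPC list. Tbx5, which specifies heart and forelimb, with Lhx5, a LIM homeobox factor, had 22 in ESC control alone, both placed by a gene end. Foxp1 appeared at both anchors through starts 500 kb apart, with 24, 23, 60 and 42 reads, and is thus a contact within 1 gene. It was the only one of the 8 pairs in all 4 lists with more reads in both NPC lists than in both ESC lists.

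**Figure D5:**
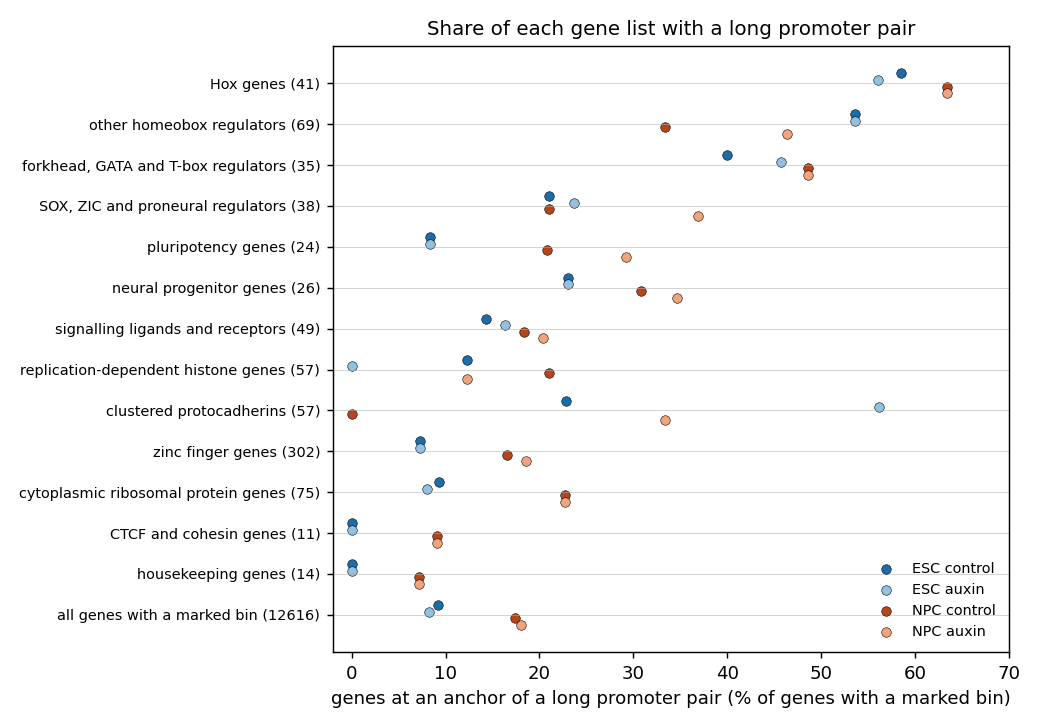
Share of the genes of each list with a marked bin (number in brackets on the y axis) that lay at an anchor of a long promoter pair (x axis, %), in the 4 lists. All genes with a marked bin lie at 9.15%, 8.20%, 17.4% and 18.1%, the Hox genes between 56.1% and 63.4%.

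Of 12616 genes with a marked bin, 9.15% and 8.20% held a long promoter pair in ESC control and auxin, and 17.4% and 18.1% in NPC control and auxin. Hox genes, the patterning factors of the body axis, which share bins within their clusters, held one in 24, 23, 26 and 26 of 41 cases. Other homeobox regulators held one in 37, 37, 23 and 32 of 69, and forkhead, GATA and T-box regulators in 14, 16, 17 and 17 of 35. These shares were above that of all genes in each list. The other homeobox regulators had fewer pairs in NPC control than in ESC control at 25 genes and more at 9, where all genes had fewer at 463 and more at 1794. SOX, ZIC and proneural regulators held one in 8, 9, 8 and 14 of 38, neural progenitor genes in 6, 6, 8 and 9 of 26, signalling ligands and receptors in 7, 8, 9 and 10 of 49, and pluripotency genes in 2, 2, 5 and 7 of 24. Zinc finger genes were at 7.28%, 7.28%, 16.6% and 18.5%, cytoplasmic ribosomal protein genes at 7, 6, 17 and 17 of 75, and of the 14 housekeeping genes and 11 CTCF and cohesin genes 1 each (Hsp90ab1 and Pds5b) held a pair, in NPCs. Several genes stand in more than 1 list.

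No long pair had a Hox gene at both anchors, so each Hox pair joined a Hox bin to a bin without one. The lower bound of 500 kb leaves out shorter contacts, such as those within a cluster, so this follows from the selection. The Hoxa bins held 14, 10, 48 and 44 long pairs in the 4 lists, the Hoxb bins 23, 24, 36 and 30, the Hoxd bins 7, 7, 25 and 22, and the Hoxc bins 0 in each. All 3 clusters with pairs thus had more in NPCs than in ESCs under the same treatment, and so in the FitHiChIP lists (17, 19, 49 and 44 for Hoxa, 17, 19, 32 and 20 for Hoxb, and 9, 7, 30 and 22 for Hoxd). Long pairs as a whole were 1.84 (control) and 2.29 (auxin) times as many in NPCs by MAPS, and 1.49 and 1.52 times by FitHiChIP. Hoxa and Hoxd exceeded this in each comparison. Hoxb stayed below it in both MAPS comparisons and with auxin by FitHiChIP, so its increase was no more than the general one there. In NPCs the Hoxa bins paired with Cbx3, a heterochromatin protein gene (7 and 9 pairs in control and auxin), Snx10, a sorting nexin (5 and 5), and Hnrnpa2b1, an RNA-binding protein gene (1 and 6). The Cbx3 bin (chromosome 6, 51470001 to 51480000) held 0, 0, 8 and 12 long pairs, and that of Hoxa9 4, 3, 14 and 11. The bin of Hoxb8 and Hoxb7 held 6, 6, 9 and 8, and of its 6 partners in ESC auxin 1 held a coding gene, Cbx1.

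Single regulators varied. Pax9 held 9, 7, 7 and 8 long pairs, Foxa2 5, 5, 3 and 9, and Foxa1 4, 5, 3 and 5. Otx1, a homeobox factor of forebrain and midbrain, held 4, 7, 2 and 13, and Lhx2, a LIM homeobox factor of forebrain and eye, 6, 10, 2 and 4. Both had more with auxin than in control in each cell type. Pax6, an eye and forebrain factor, held 4, 4, 2 and 1. Fgf8, a ligand of the midbrain-hindbrain organizer, held 12, 10, 12 and 8, and Shh, the ligand that patterns the ventral neural tube, 6, 4, 6 and 7. Sox6 held 2, 3, 2 and 2, Hey1, a Notch target, 1, 3, 0 and 3, Tbx3 0, 1, 5 and 3, and Sall4 0, 2, 1 and 4. With counts this small no order among such genes can be read.

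The clustered protocadherins, surface proteins of neurons on chromosome 18, had more long pairs with auxin, unlike the ESC lists as a whole. Their 43 marked bins held 5 and 34 long pairs in ESC control and auxin and 0 and 8 in NPC control and auxin, and 12, 49, 0 and 4 in the FitHiChIP lists. In ESC auxin 29 of the 34 pairs had both anchors in these bins, with a median count of 19 and a median ratio to expected of 3.18. Both callers thus listed more long pairs of the cluster with auxin in ESCs. The alpha genes share their last exons, as do the gamma genes, so values are given by bin and not by gene. The protocadherin genes were placed by a gene end. The replication-dependent histone genes had 4 pairs in ESC control, 0 in ESC auxin and 8 in each NPC list.

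Of the 242 pairs in all 4 lists, 100 had a gene at both anchors, in 85 clusters, and the 10 with the highest lowest ratio to expected included the Irx1 and Irx3 pairs above. Crlf2, a cytokine receptor gene, with the bin of Gtpbp6 and Plcxd1 (chromosome 5, 109550001 to 109560000 and 110100001 to 110110000) had 66 and 51 reads in ESC control and auxin and 144 and 117 in NPC control and auxin, with ratios of 6.25, 5.16, 10.2 and 6.75. It was higher in both NPC lists. Adgrb1, an adhesion receptor of the brain, paired with the bin of Mroh5 (43, 41, 55 and 43 reads) and with Ptp4a3, a phosphatase (22, 26, 33 and 46). Lbx1, a homeobox factor of muscle precursors and spinal cord, paired with the bin of Npm3 and Fgf8 with 63, 65, 86 and 99 reads. Adgrb1, Mroh5, Ptp4a3 and Lbx1 were placed by a gene end.

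A further 3 of the 10 joined genes of general cell functions. Sptbn1, a beta spectrin, with Psme4, a proteasome activator (chromosome 11, 30190001 to 30200000 and 30770001 to 30780000), had 27, 25, 47 and 43 reads. Dctn6, a dynactin subunit, with Dusp4, a MAP kinase phosphatase, had 27, 25, 26 and 35. Cdc27, a subunit of the anaphase-promoting complex, with Mettl2 had 22, 29, 26 and 33. Poisson intervals of control and auxin overlap at these 3 pairs in both cell types. Dctn6, Dusp4 and Mettl2 were placed by a gene end.

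Pairs in both controls and neither auxin list had counts of 13 to 38 among the named ones. The 5 named among 180 were the bin of Ndufa3 and Oscar with Rdh13 (24 reads in ESC control and 28 in NPC control), the imprinted genes Peg10 and Sgce with Asb4 (38 and 37), Cwf19l2 with Msantd4 (13 and 21), the autophagy gene Atg5 with Prep (15 and 28) and the kinetochore gene Nuf2 with Uap1 (15 and 19). The pair of Peg10 and Sgce with Asb4 (chromosome 6, 4740001 to 4750000 and 5380001 to 5390000) had 5.87 and 5.31 times the expected count. FitHiChIP called none of the 5 in ESC auxin and 1 of them, Cwf19l2 with Msantd4, in NPC auxin, with 11 contacts. Rdh13, Peg10, Sgce and Prep were placed by a gene end.

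The 105 pairs in both auxin lists and neither control included Zfp354b with Phykpl (18 reads in ESC auxin and 27 in NPC auxin), the bin of Zic1 and Zic4, zinc finger regulators of the neural tube, with Plscr1 (15 and 22), Glt1d1 with Tmem132d (14 and 15), Fzd8, a Wnt receptor, with Thoc1 (13 and 45), and Inpp5e with the bin of Med22, Rpl7a and Surf1 (39 and 41). FitHiChIP called 1 of the 5 in a control list, Fzd8 with Thoc1, with 19 contacts in NPC control. The other 4 were listed in a control by neither caller. A pair that is not listed can still have reads, since the lists hold called pairs only. Glt1d1, Tmem132d, Fzd8 and Thoc1 were placed by a gene end.

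In ESC control alone, the 5 highest were Ramp3 with Igfbp1 (15 reads, 5.46 times expected), Nuf2 with Uhmk1 (12), Yae1d1 with Vps41 (13), Dnah9 with Tmem220 (13) and Sprn with Urah (13), all close to the minimum count. In NPC control alone they were Rsph3b with Rsph3a (13 reads, 12.5 times expected), Txnrd3 with Cfap100 (31, 9.44), the bin of Ccdc82 and Jrkl with Mtmr2 (35), Gm9805 with Zfp40 (30) and Caly with the bin of Odf3 and Scgb1c1 (16). Tmem220, Gm9805 and Zfp40 were placed by a gene end. Rsph3a and Rsph3b are near-identical copies with a mappability of 0.599 in the less mappable bin, and FitHiChIP listed this pair in all 4 lists with 128, 162, 454 and 451 contacts, so it is uncertain.

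Some bins held many long pairs, while 58.7% to 66.4% of the anchors of a list held 1. The bin of Zfp941 (chromosome 7, 140820001 to 140830000) held 11, 4, 14 and 9 long pairs, and that of Bet1l and Ric8a (140850001 to 140860000) 3, 6, 15 and 12, with partners near Utf1, Zfp511, Msx3, Echs1 and Mtg1. Crlf2 held 5, 8, 11 and 14, Kcnn1 2, 5, 9 and 13, and the bin of Abhd8, Dda1 and Mrpl34 2, 6, 7 and 13, whereas Cadm3 held 7, 1, 7 and 1, Rdh13 8, 3, 8 and 8, Pheta2 9, 2, 6 and 6, and Trim27, beside the histone genes of chromosome 13, 7, 1, 12 and 7. These bins were picked as the 5 with most pairs in a list, so a bin tends to be high in the list that picked it. Kcnn1 and the bin of Abhd8 were picked through NPC auxin alone. Cadm3, Rdh13 and Pheta2 were picked through ESC control alone, and Trim27 through NPC control alone. Their differences between control and auxin therefore show no direction. The largest set of anchors joined through shared bins was on chromosome 8 in both NPC lists, with 28 anchors and 51 pairs in control and 40 anchors and 98 pairs with auxin (70620001 to 72320000, from Lrrc25 to Klf2), and in ESC auxin it was the protocadherin region, with 24 anchors and 33 pairs. Vcan held no long promoter pair in any list.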

How the data were processed

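H3K4me3 PLAC-seq was measured in 14 samples, of which the 8 of 4 groups enter here through 1 list per group and caller; with no replicate lists, no test was made and intervals cover counting error only. Per the submitters' processing notes, BWA, Picard and build mm10 were used. Per the file headers, the MAPS lists give for each pair of 10 kb bins a read count, an expected contact signal, the ratio of count to expected and an FDR (at most 0.01), all made by the authors. The deposited FitHiChIP lists give contact counts and q-values in the same bins. No columns of per-sample values were left out (0).

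From these, long promoter pairs were selected by flags and distance, matched between lists by identical bins, and given exact Clopper-Pearson shares, exact conditional ratios and exact Poisson counts (95%) with Python 3.11.15, pandas 2.3.3, numpy 2.4.6, scipy 1.17.1, matplotlib 3.10.9 and networkx 3.6.1. The matching was tested on simulated data. Genes of RefSeq (GRCm38.p6) were placed by start where the promoter table holds them (17492 of 21900) and otherwise, unlike the planned use of starts alone, by a gene end in a marked bin (2682); 1726 were not placed.

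Pairs with a gene at both anchors were named, 1 per cluster: the 10 with the highest lowest ratio among those in all 4 lists (1 of them is not reported here), and the 5 highest each in ESC control alone, NPC control alone, both controls and both auxin lists; likewise the 5 anchors with most pairs in each list and the 2 members with most pairs of each gene list. Members and lists were chosen with earlier results of these data known. Alternatives were the other caller, stricter thresholds, a bound of 600 kb, adjacent bins, clusters, leaving out chromosome 8 and other gene placements.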

Additional observations from a re-analysis of the deposited data

How the results depend on the processing

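Each list is a single measurement, with no spread between samples and none to leave out. At median counts of 17 to 20 per pair, near the minimum of 12, absence from a list does not show absence of contact. No paired analysis was possible because each group has a single list and no column carries a replicate number.

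Of 84 values under alternatives, 40 moved by less than their spread or counting interval and 44 moved further. The NPC auxin to control ratio, 0.998 as reported, crossed 1 with a bound of 600 kb (1.04) and with clusters counted once (1.01). In the FitHiChIP lists, the auxin to control ratio of the number of long promoter pairs was 0.867 (ESC) and 0.884 (NPC), the NPC to ESC ratio 1.49 (control) and 1.52 (auxin), the share called again 41.2% (ESC) and 46.2% (NPC), the share of ESC control pairs in NPC control 51.3%, and the share with a gene at both anchors 49.3% (NPC control) and 51.0% (NPC auxin). With anchors allowed to differ by 1 bin, the shares called again were 51.9% and 65.7%, and those of ESC pairs in the NPC list 71.5% (control) and 68.4% (auxin). At an FDR under 0.0001 the number ratios were 0.660, 0.7705, 2.285 and 2.67 in the same order, the shares called again 28.25% and 37.4%, and 43.4% of ESC auxin pairs were in NPC auxin. At 3 or more times the expected count the NPC auxin to control ratio was 0.806, the NPC to ESC ratios 1.71 and 1.86, the shares called again 28.8% and 38.4%, and the shares of ESC pairs in NPC lists 52.0% and 39.6%. From 600 kb, the NPC to ESC ratios were 2.01 and 2.75 and 59.4% of ESC control pairs were in NPC control. With the minimum count scaled to total contacts, chosen after seeing the data, the NPC auxin to control ratio was 0.886, the NPC to ESC ratios 1.62 and 1.91, the NPC share called again 45.9%, and the shares of ESC pairs in NPC lists 51.6% and 46.2%. A gene lay at both anchors in 59.5%, 63.3%, 65.2% and 68.9% of pairs (ESC control, ESC auxin, NPC control, NPC auxin) when adjacent bins counted, and in 23.3%, 21.9%, 31.9% and 32.3% with promoter table starts alone, also chosen after seeing the data. The fewer or additional pairs and genes that each setting admits are part of its construction, and other causes were not tested. The difference in median ratio, auxin minus control, stayed between -0.19 and -0.28 in ESCs and between -0.38 and -0.57 in NPCs under every alternative run for it.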
